A study of Mus musculus with 9 samples.

Results

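The MYC and MAX network was followed at the RNA level while cultured spermatogonial stem cells were driven to differentiate. Its 10 genes were chosen by name, as the MYC family (Myc, Mycn, Mycl), the shared partner Max, Mga, the MXD family (Mxd1, Mxd3, Mxd4, Mxi1) and Mnt, out of 46078 gene identifiers in the count files, and each was found once. The cells were EGFP-SSCs, a wild-type mouse line that carries green fluorescent protein, so all groups descend from 1 line. At 0 h they grew under normal culture, on mitomycin C-treated embryonic fibroblasts with GDNF, FGF2 and EGF. The 24 h and 48 h groups were mixed with an equal number of somatic cells from testes of busulfan-treated newborn mice, in medium with retinoic acid, BMP-4/7, activin A, testosterone, FSH, pituitary extract and serum replacement, and their EGFP-positive cells were then sorted. Each group held 3 libraries of poly(A) RNA called biological replicates in the labels, with 16825251 to 22201892 counts per library. Against 0 h, medium, somatic cells and time changed together, so their parts cannot be told apart. The 24 h and 48 h groups are described with the same medium and somatic cells, and their labels differ in time. The p-values measure the spread between libraries of 1 line, which may include that of library preparation.

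MYC proteins pair with MAX through a helix-loop-helix and leucine zipper, bind the E-box CACGTG and activate genes of ribosome assembly, metabolism and cell division. MXD proteins and MNT also pair with MAX, bind the same sites and recruit SIN3 and histone deacetylases, so both sides compete for this partner. MGA joins MAX in a polycomb complex, PRC1.6, which keeps meiotic and germline genes silent in stem cells. Mycn and Myc are known for a role in the self-renewal of spermatogonial stem cells downstream of GDNF.

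The E-box is the sequence the network reads, and some of its own genes carry it. RefSeq start sites on GRCm38.p6 gave promoter windows of 300 bases (250 before the start and 50 after) for 9 of the 10 genes, all except Myc. CACGTG, which reads the same on both strands, was found in the windows of 3 of these 9 genes (Max, Mxd4 and Mnt), against 8.09% of the 27025 genes with a window. The motif began at position -3 from the start site in Max, at -219 in Mxd4 and at -123 in Mnt. The stretches below are written 5′ to 3′ on the gene's strand with the E-box in capitals, and show that the shared partner and a pair of its repressive partners have the network's own site by their start.
Max, chr12:76962246-76962287, minus strand: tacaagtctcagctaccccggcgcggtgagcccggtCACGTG
Mxd4, chr5:34187888-34187960, minus strand: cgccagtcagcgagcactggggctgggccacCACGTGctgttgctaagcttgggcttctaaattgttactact
Mnt, chr11:74830765-74830842, plus strand: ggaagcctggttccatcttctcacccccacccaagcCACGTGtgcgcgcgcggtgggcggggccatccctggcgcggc

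A second motif, GGCGGGA on either strand, resembles the site of E2F factors and was present in 4 of the 9 genes (Mycl, Mxd3, Mxi1 and Mnt), against 12.7% of all genes with a window. In Mnt, which held both, they did not overlap. These matches describe the windows and show no binding.

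In GENCODE M21 on GRCm38 the MYC genes lie at chr15:61985391-61990374 (Myc), chr12:12936093-12941914 (Mycn) and chr4:122995652-123002485 (Mycl). Max lies at chr12:76937269-76962201 and Mga at chr2:119897228-119969581. The counts cover exons, untranslated regions included, and no exon of these 5 genes overlapped another gene. Mxd1 lies at chr6:86647042-86669161, Mxd3 at chr13:55325168-55329823, Mxd4 at chr5:34173883-34187720, Mxi1 at chr19:53310518-53375810 and Mnt at chr11:74830920-74845725. Exons of Mxd3 overlapped Prelid1 over 105 bases, those of Mxd4 overlapped Gm42846 over 514 bases and those of Mxi1 overlapped Gm10197 over 194 bases, each on the opposite strand. Whether strand was used in counting is not stated in the sources used here, so these 3 genes carry some uncertainty.

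Over the union of exons, Mycn was the most abundant gene of the network at each time, and Myc the least. Levels between genes were compared as FPKM, TMM-normalised CPM divided by the union of exons in kilobases. At 0 h Mycn stood at 29.9 ± 6.29 FPKM (SD, n = 3), Max at 19.7 ± 1.66 and Myc at 1.19 ± 0.109. Mga at 14.2, Mnt at 10.99 and Mxi1 at 10.7 FPKM followed Max at 0 h, and the ranges of each of these neighbours overlapped. Mxd4 (7.17) and Mycl (5.30) also overlapped, while Mxd3 (3.23) and Mxd1 (1.97) each stood apart from the gene next to them. The tail of the order was the same at the other times, with Mxd3, Mxd1 and Myc last.

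The middle of the order was redrawn at 24 h. Mycn fell to 18.7 ± 0.698 FPKM yet stayed on top without overlap, and Mxd4 came next at 14.5 ± 0.642, level with Max (14.2), Mga (14.0) and Mnt (12.7), whose ranges overlapped. Mycl reached 12.1 ± 0.197 FPKM. At 48 h Mycn was again at 28.8 ± 2.63 FPKM, but its range overlapped that of Mga (24.9 ± 7.86). Max (16.1) came after these, then Mxd4 (10.9), Mycl (9.74) and Mnt (9.30), which overlapped in turn. With the longest transcript in place of all exons, the mean of Max over the 9 libraries moved from 16.6 to 30.8 FPKM and that of Mxd4 from 10.8 to 19.9. At 24 h Mxd4 (26.6) and Max (26.3) then stood above Mycn (23.1 FPKM) without overlap, so the order between genes rests on the length used.

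Between 0 h and 24 h, Mycl and Mxd4 rose and Mycn and Max fell. These 4 of the 10 genes passed edgeR's quasi-likelihood test at a Benjamini-Hochberg adjusted p of up to 0.05, against 25.5% of the 17592 genes tested (11.4% higher and 14.2% lower). Between 24 h and 48 h, 6 of the 10 genes passed, against 21.3% of 17499 genes (8.61% higher and 12.7% lower). Mycn and Mga rose there, and Mycl, Mxd4, Mxi1 and Mnt fell. Over the whole 48 h, 3 genes passed, with Mycl and Mxd4 higher and Mxi1 lower, against 31.6% of 17755 genes (13.0% higher and 18.5% lower). All 10 genes passed the filter on low counts in each comparison. For 24 h against 0 h the median of the 10 log2 fold changes was -0.05, and that of all genes 0.01. For 48 h against 24 h these medians were -0.29 and -0.00453, and for 48 h against 0 h they were -0.14 and 0.02. The comparisons share libraries and so are not independent.

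Calls at 24 h against 0 h came down to 2 of the 10 genes without 0 h replicate 2 or without any of the 24 h libraries, and those 2 were Mycl and Mxd4 each time. At 48 h against 24 h, the count was 2 without 48 h replicate 1, 3 without 24 h replicate 3 and 1 when all 9 libraries shared a fit, the last being Mycn.

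**Figure D1:**
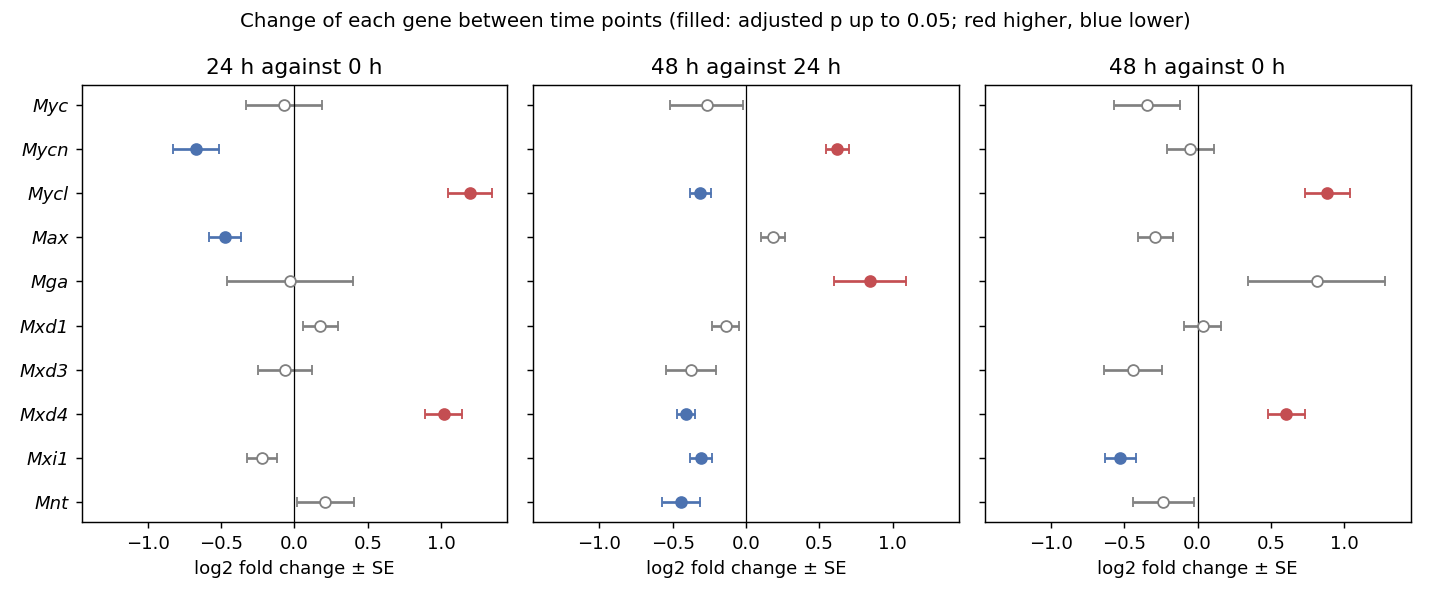
Log2 fold change of each of the 10 genes with its standard error, in 1 panel per comparison of time points. Filled points have an adjusted p of up to 0.05 (red higher, blue lower). Mycn and Mycl lie on opposite sides of 0 at 24 h against 0 h and again, with signs exchanged, at 48 h against 24 h. Mga has the widest bar in both comparisons against 0 h.

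The make-up of the MYC family shifted at 24 h and partly returned by 48 h, with Mycn in the majority throughout. Mycn encodes the member with the highest RNA level in these cells, and its level was 77.7, 98.6 and 119 CPM in the 0 h libraries, 59.2, 62.3 and 63.7 at 24 h, and 90.6, 105 and 88.9 at 48 h. All 24 h libraries lay under all others, and the 0 h and 48 h libraries overlapped. The log2 fold change was -0.67 (SE 0.154, adjusted p = 0.017) at 24 h against 0 h and 0.62 (SE 0.0754, adjusted p = 0.000859) at 48 h against 24 h. Over 48 h it was -0.05 (SE 0.159, adjusted p = 0.85). The later rise passed in all 6 fits that left out a library and in all 9 other alternatives. The earlier fall passed in all 9 other alternatives but in 2 of 6 fits that left out a library, where its log2 fold change ran from -0.81 to -0.49. It did not pass without 0 h replicate 2 or without any of the 24 h libraries.

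Mycl moved the other way. The gene encodes L-MYC, which binds the same site through MAX and is a weaker transforming protein than its relatives. Its level was 19.2, 18.6 and 26.3 CPM at 0 h, 48.1, 49.1 and 49.7 CPM at 24 h, and 36.9, 42.7 and 38.3 CPM at 48 h, so the 3 groups did not overlap. Mycl rose 2.29-fold by 24 h (log2 1.20, SE 0.151, adjusted p = 0.0013) and was 1.85-fold above 0 h at 48 h (log2 0.88, SE 0.155, adjusted p = 0.0048). Both calls held in all 6 fits without a library and all 9 other alternatives. The step down from 24 h to 48 h was smaller (log2 -0.31, SE 0.0722, adjusted p = 0.0157) and did not pass without 24 h replicate 3, without 48 h replicate 1, with 9 libraries in 1 fit or with offsets for GC content and length, where it was -0.13.

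Myc itself did not pass in any comparison. Its level was 3.50, 2.92 and 3.27 CPM at 0 h, 2.26, 3.79 and 3.17 CPM at 24 h, and 2.97, 2.29 and 2.35 CPM at 48 h, from 45 to 71 counts per library. The groups overlapped throughout. The fitted changes were -0.07 (SE 0.258) at 24 h against 0 h and -0.34 (SE 0.224) at 48 h against 0 h on the log2 scale, within the spread between libraries.

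Set side by side per length, Mycn held 82.0% ± 2.27 (SD, n = 3) of the summed FPKM of the MYC family at 0 h, 58.6% ± 0.358 at 24 h and 72.9% ± 0.642 at 48 h. The share of Mycl was 14.6% ± 1.59, 37.9% ± 0.750 and 24.7% ± 0.616, and that of Myc 3.37%, 3.52% and 2.39%. The shares of Mycn and of Mycl did not overlap between any of the times. The summed level changed less, and was 36.4 ± 7.16 FPKM before co-culture, 32.0 ± 1.12 after 24 h and 39.4 ± 3.28 after 48 h, and the 0 h range overlapped both.

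**Figure D2:**
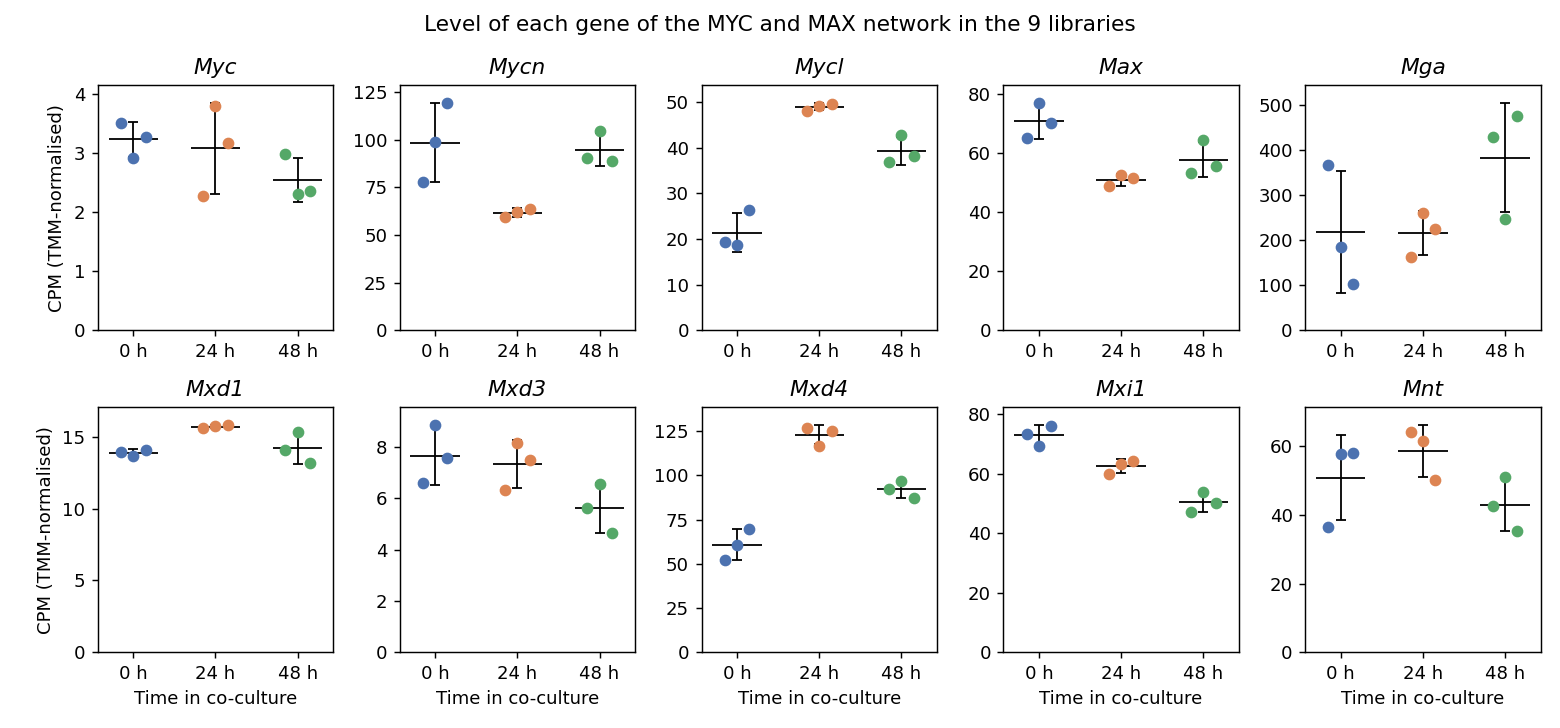
Level of each of the 10 genes in the 9 libraries, in TMM-normalised CPM, with a separate axis from 0 for each gene. Points are libraries in replicate order, long lines are means and bars are ± 1 SD (n = 3). Mycl and Mxd4 stand highest at 24 h with no overlap between times, Mycn is lowest at 24 h, and Mga spreads from 103 to 366 CPM within 0 h.

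Max encodes the partner that the other proteins of the network share. Its level was 65.0, 77.0 and 70.3 CPM at 0 h, 48.8, 52.8 and 51.4 CPM at 24 h, and 53.2, 64.5 and 55.6 CPM at 48 h. The 24 h libraries lay under all others, and the 48 h libraries lay under those of 0 h by a narrow margin. Max fell by 0.47 on the log2 scale at 24 h (SE 0.109, adjusted p = 0.0174). At 48 h the log2 fold change against 0 h was -0.29 (SE 0.119, adjusted p = 0.111) and did not pass. The fall at 24 h did not pass without 0 h replicate 2 or without any of the 24 h libraries, nor with library size alone (-0.36) or with the replicate number as a block (-0.47). It stayed between -0.52 and -0.36 over all alternatives.

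Mga encodes the largest protein of the network, with a T-box as well as the MAX-binding domain. It had the widest spread among its replicates: 366, 184 and 103 CPM at 0 h, 162, 259 and 224 CPM at 24 h, and 428, 246 and 474 CPM at 48 h. The 0 h libraries covered the range of the 24 h libraries, and 48 h replicate 2 lay within the 24 h range, so no pair of groups was separate. The rise from 24 h to 48 h passed the test all the same (log2 0.84, SE 0.245, adjusted p = 0.0376), but in 2 of 6 fits without a library and in 5 of 9 other alternatives. It did not pass without 24 h replicate 1 (0.66) or 3 (0.90), or without 48 h replicate 1 (0.77) or 3 (0.66). Against 0 h the change at 48 h was 0.81 (SE 0.465, adjusted p = 0.234), and it passed without 0 h replicate 1 (1.43).

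The spread of Mga went together with a property of the libraries. The longest Mga transcript has 42.2% GC, at percentile 12.8 of all genes, and its length is at percentile 99.5. Within each time, the deviation of 18161 genes from their group mean was related to GC content with Spearman's rho of -0.596, 0.0255 and 0.583 in the 3 libraries of 0 h, 0.304, -0.154 and -0.148 at 24 h, and -0.0865, 0.377 and -0.359 at 48 h. These correlations are across genes, which are not independent. Mga deviated by 0.94, -0.05 and -0.89 on the log2 scale in the 0 h libraries, in the reverse order of their rho. With offsets for GC content and length in the fit, Mga had a log2 fold change of 0.47 at 48 h against 24 h and did not pass. At 48 h against 0 h it was 0.492 with these offsets (SE 0.193, adjusted p = 0.0725) and did not pass. With the replicate number as a block as well, it was 0.494 (SE 0.158, adjusted p = 0.0438) and passed.

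**Figure D3:**
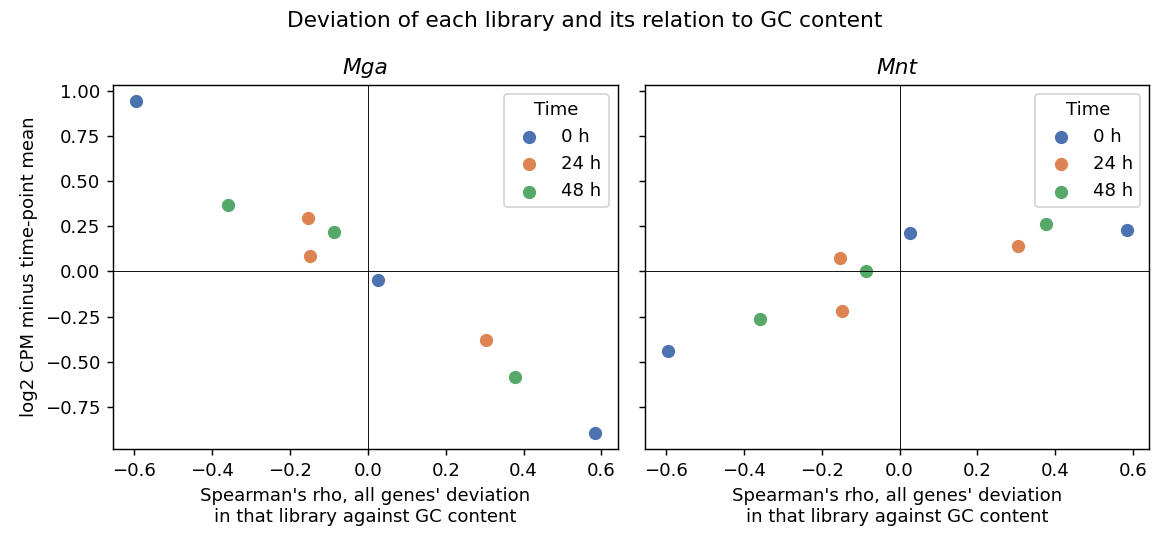
Deviation of Mga (left) and Mnt (right) from the mean of their time point on the log2 CPM scale (y axis) against Spearman's rho between the deviation of all genes in that library and their GC content (x axis), with 1 point per library. The low-GC gene Mga runs from 0.94 down to -0.89 and the high-GC gene Mnt runs upward, from -0.44 to 0.26.

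Among the genes whose products oppose MYC, Mxd4 showed the clearest change. It encodes MAD4, a MAX partner found in differentiating cells. Mxd4 stood at 52.1, 60.6 and 69.8 CPM at 0 h, 127, 117 and 125 CPM at 24 h, and 92.4, 96.6 and 87.2 CPM at 48 h, with no overlap between the times. It rose 2.02-fold by 24 h (log2 1.02, SE 0.124, adjusted p = 0.00112) and remained 1.52-fold above 0 h at 48 h (log2 0.60, SE 0.126, adjusted p = 0.00968). The fall from 24 h to 48 h was -0.41 (SE 0.0629, adjusted p = 0.00254). All 3 calls held in each of 6 fits without a library, and the first pair also in all 9 other alternatives. The fall held in 8 of 9, failing where all 9 libraries shared a fit.

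Mxi1, also called Mxd2, went down in steps instead. It encodes a MAX partner that binds SIN3. Its level was 73.3, 69.3 and 76.2 CPM at 0 h, 60.1, 63.2 and 64.5 CPM at 24 h, and 47.2, 53.9 and 50.2 CPM at 48 h, and the groups did not overlap. The log2 fold change was -0.22 (SE 0.102, adjusted p = 0.164) by 24 h, which did not pass, and -0.53 (SE 0.105, adjusted p = 0.00816) by 48 h, which did. The call at 48 h against 0 h was lost only without 48 h replicate 1, among 6 fits without a library and 9 other alternatives. The step from 24 h to 48 h was -0.31 (SE 0.0721, adjusted p = 0.0168). It was lost in 3 of 6 fits, without 24 h replicate 2 or 3 or without 48 h replicate 1. It was also lost where all 9 libraries shared a fit.

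Mnt, which encodes the most widely expressed repressive partner of MAX, had 36.6, 57.7 and 58.2 CPM at 0 h, 64.3, 61.6 and 50.2 CPM at 24 h, and 42.6, 51.0 and 35.5 CPM at 48 h. All groups overlapped. A fall from 24 h to 48 h passed (log2 -0.44, SE 0.130, adjusted p = 0.0394), though in 2 of 6 fits without a library and 6 of 9 other alternatives. It did not pass without 24 h replicate 1 or 2 or without 48 h replicate 1 or 3, with a range of -0.56 to -0.33 over all 6 such fits. Mnt has 59.5% GC, at percentile 94.3, and with the GC and length offsets the change was -0.22 and did not pass.

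Mxd1 and Mxd3 did not pass in any comparison. Mxd1, an early marker of differentiation in blood cells, lay between 13.2 and 15.8 CPM in the 9 libraries, and its 24 h libraries were above all others by a narrow margin (log2 0.18, SE 0.117, adjusted p = 0.33 against 0 h). Mxd3, which is linked to proliferating cells, lay between 4.65 and 8.85 CPM. Its 48 h libraries were lower than those of 0 h only just, with 6.574 CPM in 48 h replicate 2 and 6.577 CPM in 0 h replicate 1. The change of -0.44 at 48 h against 0 h (SE 0.199, adjusted p = 0.139) did not pass.

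Per length, the repressive side weighed most against the MYC side at 24 h. The summed FPKM of Mxd1, Mxd3, Mxd4, Mxi1 and Mnt was 34.0 ± 4.00 at 0 h, 41.7 ± 1.11 at 24 h and 31.9 ± 3.10 at 48 h. Divided by the sum of the MYC family in the same library, this gave 0.946 ± 0.0865 at 0 h (0.847 to 0.997), 1.30 ± 0.0771 at 24 h (1.23 to 1.39) and 0.809 ± 0.0261 at 48 h (0.781 to 0.832). The ratio was highest in the 24 h libraries, and the 3 ranges did not overlap. With the longest transcript as length it was 1.05 ± 0.0990 at 0 h (0.940 to 1.12), 1.55 ± 0.0804 at 24 h (1.48 to 1.64) and 0.954 ± 0.0257 at 48 h (0.931 to 0.982), so that 0 h and 48 h overlapped and which side of 1 the 0 h mean lay on changed with the length. It is a ratio of RNA levels, given with no test. Mxd4 made up 21.03%, 34.8% and 34.1% of the repressive sum at the 3 times.

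**Figure D4:**
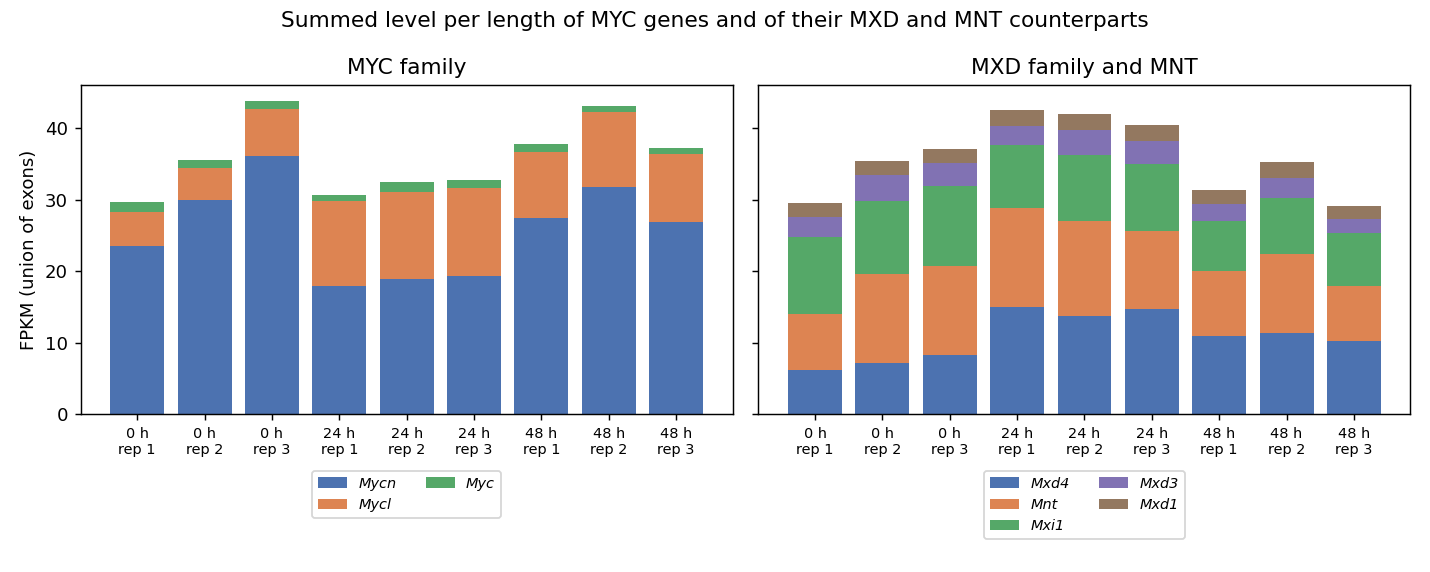
Summed FPKM of the MYC family (left) and of the MXD family with Mnt (right) in each of the 9 libraries, as stacked bars from 0 with 1 colour per gene. Mycn fills most of each MYC bar and Mycl fills 37.9% on average at 24 h, while the MXD and Mnt bars are tallest at 24 h.

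The genes most alike to 4 of these across the 9 libraries were named by Pearson's r of log2 CPM among 11196 protein-coding genes with a mean of at least 5 CPM. For Mycn these were Nop2 (r = 0.971), which encodes a nucleolar RNA methyltransferase, Dmrtb1 (r = 0.965), a regulator of the mitosis to meiosis step in spermatogonia, and Eif3f (r = 0.962), a subunit of a translation initiation factor. Dmrtb1 stood at 14.3 ± 2.49, 10.0 ± 0.805 and 14.5 ± 2.31 CPM at 0, 24 and 48 h, which has the same dip as Mycn. For Mycl they were Stard7 (r = 0.996), Cables1 (r = 0.994) and Myrip (r = 0.991), and for Mxd4 they were Adap1 (r = 0.997), Itpk1 (r = 0.996) and Pmm1 (r = 0.994). The best matches of Myc were looser, with Ggh at r = 0.782, Pkp2 at 0.778 and Sh3yl1 at 0.772. Within the network, Mycl and Mxd4 had r = 0.971 and Mga and Mnt had r = -0.814. The 9 points share 3 time points and the GC relation of the libraries, so these values are descriptions.

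The MLX branch holds the wider relatives of the network, with Mlx in the place of MAX and glucose-sensing partners in the place of MYC. At 48 h against 0 h, 2 of its 3 genes rose and none fell, where 13.0% of all genes rose and 18.5% fell. Mlxip, the most abundant, went from 107 ± 4.95 CPM before co-culture to 187 ± 14.9 after 48 h (log2 0.81, SE 0.100, adjusted p = 0.000959), and Mlxipl, known as ChREBP, from 34.6 ± 4.15 to 47.0 ± 1.01 (log2 0.45, SE 0.119, adjusted p = 0.0262). Both were also higher at 24 h, where Mlxipl stood at 66.6 ± 9.99 CPM. Mlxipl then fell from 24 h to 48 h (log2 -0.50, SE 0.105, adjusted p = 0.0106). Mlx had a log2 fold change of -0.11 and did not pass.

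Most cofactors did not pass at 48 h against 0 h. Of 9 MYC coactivators, Kat5, a histone acetyltransferase, rose at 48 h against 0 h (log2 0.51, SE 0.123, adjusted p = 0.0177), Ruvbl2, an ATPase of chromatin remodelling complexes, fell (log2 -0.85, SE 0.129, adjusted p = 0.00256), and 7 did not pass. Wdr5, the most abundant coactivator per length, was at -0.28 and did not pass. Of 15 genes of the SIN3 and NCOR corepressors none rose and 4 fell, led by Ing2, a SIN3 subunit that reads H3K4 methylation (log2 -1.21, SE 0.123, adjusted p = 0.000402). The most abundant gene, Rbbp7, was at -0.10 and did not pass. The shares called, 22.2% and 26.7%, stand beside 31.6% of all genes (13.0% higher and 18.5% lower). They come from lists of only 9 and 15 genes.

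Of 11 genes of MYC protein turnover, 1 passed at 48 h against 0 h (9.09%, against 31.6% of all genes): Skp2, an F-box protein that targets MYC for destruction, fell (log2 -0.46, SE 0.114, adjusted p = 0.02). Huwe1, a ubiquitin ligase and the most abundant gene of the list, was at 0.12 and did not pass. Of 9 PRC1.6 partners of MGA, 1 rose and 1 fell (22.2%, against the same 31.6%). L3mbtl2, which binds chromatin in PRC1.6, rose (log2 0.50, SE 0.145, adjusted p = 0.0357), and Tfdp1, the most abundant and the dimer partner of E2F6, fell (log2 -0.44, SE 0.0912, adjusted p = 0.00976). At 48 h against 24 h, 2 of the 9 partners rose and 1 fell (33.3%, against 21.3% of all genes).

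A few of the 50 MYC-activated genes fell strongly and most did not pass. At 24 h against 0 h none rose and 8 fell (16% called, against 25.5% of all genes). At 48 h against 0 h, 2 rose and 10 fell (24%, against 31.6%), and at 48 h against 24 h, 6 rose and 10 fell (32%, against 21.3%). With GC and length offsets these splits were 4 higher and 11 lower, 9 higher and 11 lower, and 12 higher and 8 lower, so the balance of directions in the last comparison turned with the correction. Their medians, -0.07, -0.10 and -0.02 on the log2 scale, were near those of all genes. The largest fall by 48 h was that of Ldha, lactate dehydrogenase A, which stood at 466 ± 82.0 CPM in the 0 h group, 182 ± 46.3 in the 24 h group and 113 ± 4.21 in the 48 h group (log2 -2.03, SE 0.139, adjusted p = 6.6e-05 for 48 h against 0 h). Hk2, hexokinase 2, went from 391 ± 54.95 to 193 ± 5.46 and 107 ± 12.6 CPM (log2 -1.86, SE 0.138, adjusted p = 9.52e-05). The rises at 48 h against 0 h were Pes1 (log2 0.62, SE 0.164, adjusted p = 0.0251) and Grwd1 (log2 0.54, SE 0.139, adjusted p = 0.0233), both of ribosome assembly. Npm1, the most abundant gene of the list and a nucleolar chaperone, was at 0.28 and did not pass.

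The count at 24 h against 0 h was 4 without 0 h replicate 2 or 24 h replicate 1, 5 without 24 h replicate 2 or 3, and 14 without 0 h replicate 3. The fit of 48 h against 0 h called 19 when 0 h replicate 3 was left out. That of 48 h against 24 h called 8 when 48 h replicate 1 was left out and 10 when 48 h replicate 3 was.

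Nop2, the gene most alike to Mycn, is itself on the list. Because Nop2 was picked for that match in these same libraries, its sharing the dip of Mycn is no separate evidence. It fell at 24 h from 202 ± 19.9 to 157 ± 2.76 CPM (log2 -0.36, SE 0.102, adjusted p = 0.0373) and rose again to 192 ± 16.1 CPM at 48 h (log2 0.30 against 24 h, SE 0.0646, adjusted p = 0.0121). The rises at 48 h against 24 h ranged from 0.23 to 0.43 on the log2 scale. Ldha and Hk2 fell again in the same step, by -0.68 and -0.84, so the list split in 2 directions.

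CACGTG was found in the promoter windows of 15 of the 42 listed genes with one (35.7%, against 8.09% of all genes). Ldha had 2 and Cdk4 had 4. Cdk4, a cyclin-dependent kinase of the G1 phase named after its values were seen, fell by 1.51 on the log2 scale at 48 h against 0 h (SE 0.132, adjusted p = 0.000203). Nop2 had 1 E-box and rose between 24 h and 48 h, a step in which Ldha fell. At 48 h against 0 h Nop2 was at -0.07 on the log2 scale and did not pass. The windows are shown because genes with the same site went in different directions, with E-boxes in capitals.
Nop2, chr6:125131787-125131864, plus strand: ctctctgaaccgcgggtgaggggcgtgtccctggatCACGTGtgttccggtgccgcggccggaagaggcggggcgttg
Ldha, chr7:46845623-46845700, plus strand: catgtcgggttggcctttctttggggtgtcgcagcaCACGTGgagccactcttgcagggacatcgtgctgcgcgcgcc
Cdk4, chr10:127063381-127063458, plus strand: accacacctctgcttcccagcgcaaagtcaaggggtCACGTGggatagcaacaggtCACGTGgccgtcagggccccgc

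Of 18 germline genes repressed by MGA or PRC1.6 in other cells, 4 rose and none fell at 48 h against 0 h (22.2% called, against 31.6% of all genes), with a median of 0.06 on the log2 scale. Stra8, the retinoic acid target that licenses meiosis, had 2.57 ± 0.586 CPM in the 0 h group, 918 ± 47.3 in the 24 h group and 482 ± 25.9 in the 48 h group (log2 7.56, SE 0.206, adjusted p = 4.17e-06 for 48 h against 0 h). Sycp3, a protein of the chromosome axis in meiosis, rose over 48 h, with 22.4 ± 9.33 CPM before and 53.8 ± 3.30 after (log2 1.26, SE 0.303, adjusted p = 0.0175). At 24 h against 0 h, 2 of the 18 rose and none fell (11.1%, against 25.5%), and at 48 h against 24 h, 2 rose and 2 fell (22.2%, against 21.3%), Stra8 among the latter. Tuba3a, the most abundant per length, was at -0.10 at 48 h against 0 h and did not pass.

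The E-box was in the windows of 9 of these 18 genes (50%, against 8.09% of all genes with a window). Sycp3 had 2, shown here because it is the gene of the list with the site and the largest rise. Stra8 had none in its window.
Sycp3, chr10:88459487-88459564, plus strand: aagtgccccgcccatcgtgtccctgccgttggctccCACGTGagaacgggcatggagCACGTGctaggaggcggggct

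**Figure D5:**
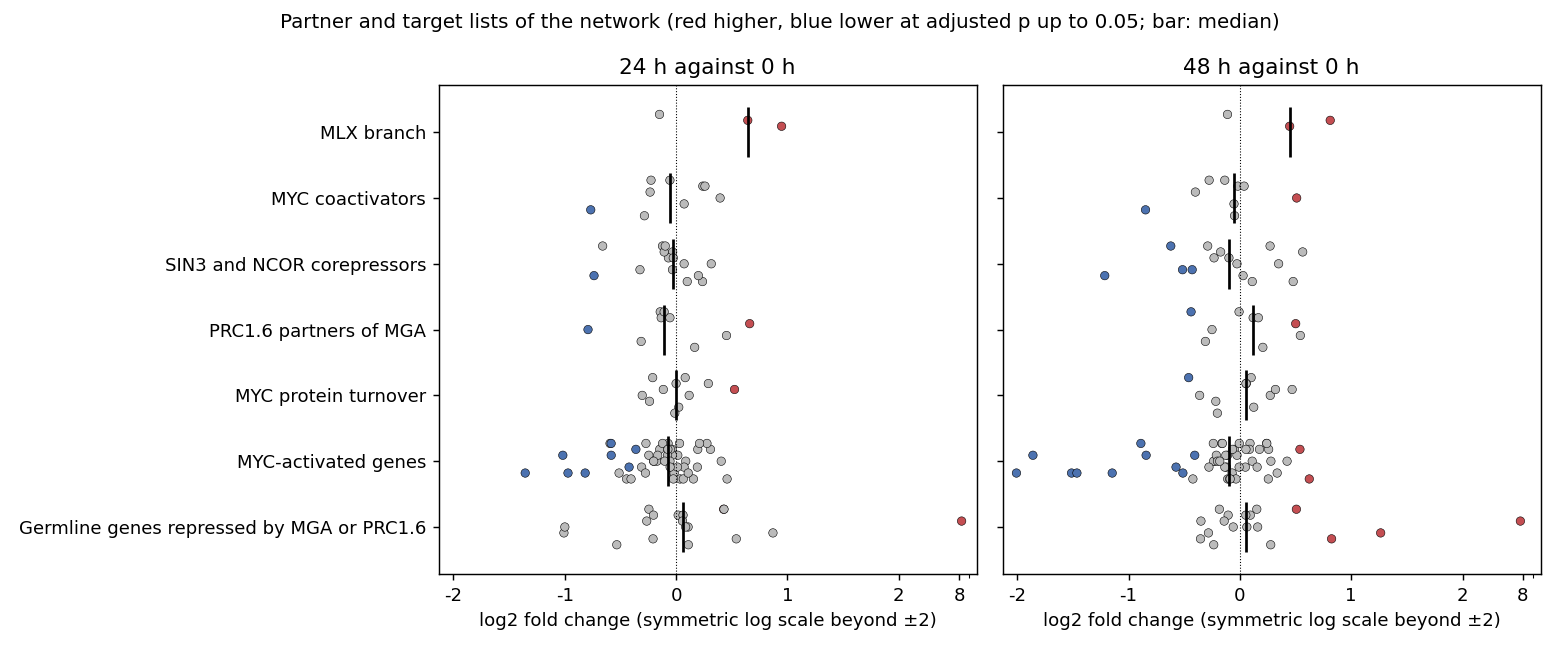
Log2 fold changes of the genes of 7 partner and target lists (rows) at 24 h and 48 h against 0 h, with 1 point per gene, on a scale that is linear to ±2 and logarithmic beyond. Red points rose, blue points fell and black bars are medians. Most medians lie near 0, the falls of MYC-activated genes reach -2.03, and Stra8 lies alone at 8.48 and 7.56.

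The time points were checked with Kit, a receptor of differentiating spermatogonia, which lay at 7.65 to 9.77 CPM at 0 h, 527 to 606 at 24 h and 314 to 340 at 48 h. The sum of 8 germ cell markers was 1898 to 2821 CPM at 0 h, 2200 to 2374 at 24 h and 2171 to 2324 at 48 h, and all 8 were above 1 CPM. Single germ cell markers did change. Against 0 h, 1 of the 8 was called higher at 24 h (12.5%, against 25.5% of all genes). At 48 h against 0 h, 2 were called lower (25%, against 31.6%), with a lowest log2 fold change of -0.744. At 48 h against 24 h, 3 were called lower (37.5%, against 21.3%). Markers of other cells moved with time as well. The sum of 8 stromal and fibroblast markers was 309 to 393, 2164 to 2438 and 2804 to 3062 CPM at 0, 24 and 48 h, that of 6 myoid markers was 13.7 to 15.8, 149 to 207 and 267 to 317, that of 8 Sertoli markers was 15.6 to 18.7, 40.6 to 57.3 and 50.4 to 50.9, and that of 6 Leydig markers was 4.53 to 6.97, 29.4 to 44.7 and 29.5 to 36.5. The Sertoli marker Fshr had 3 counts or fewer in every library, and at 0 h so did Rhox8, Actg2, Hsd3b1, Insl3 and Tcf21. Not every gene followed these rising sums. At each later time 5 of the 8 stromal markers passed as rises against 0 h and 1 as a fall. The lowest log2 fold change among them was -1.49 at 24 h and -0.996 at 48 h. Of 6 Sertoli markers tested, 5 passed as rises at each time, and the remaining gene fell at 24 h (log2 -0.803). No myoid or Leydig marker passed as a fall against 0 h. The sums of 6 endothelial (43.3 to 48.1, 15.1 to 19.6 and 12.8 to 13.5) and 6 macrophage markers (15.7 to 18.0, 6.24 to 10.2 and 6.20 to 9.11) were lower after 0 h, without overlap, but single genes went both ways. Of 5 endothelial markers tested, 2 were called higher and 2 lower at each later time against 0 h, and of 3 macrophage markers 1 was higher and 1 lower at 24 h and 1 lower at 48 h. The part of these cells in the changes of the network was not tested, and in bulk RNA fewer cells of a type and less RNA per cell cannot be told apart.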

How the data were processed

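RNA-seq was done on 9 libraries of EGFP-SSCs, 3 at each of 0, 24 and 48 h. The authors deposited counts, whole numbers of reads per gene and library, with no normalization, and the submitters' processing notes name fastp, HISAT2, featureCounts and GRCm38 without versions. The annotation release and strand setting are not given in the sources used here. GENCODE M21 gave symbols, exons and lengths for 45229 of 46078 identifiers. Library totals were 16825251 to 22201892 counts, and the floor for detection was set at 3 counts per library. Replicate libraries differed beyond sampling noise (chi-square per degree of freedom 7.78 to 90.9), so none was merged.

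Each comparison used the 6 libraries of its groups, filterByExpr, TMM and edgeR 4.0.16 (R 4.3.3), whose quasi-likelihood test is two-sided. P-values were adjusted by Benjamini-Hochberg over all genes tested, and 0.05 was the threshold. The script was first run on simulated counts with known changes, which are not quoted here. CPM were TMM-normalised over the 9 libraries, FPKM divided them by the union of exons, and log2 CPM used a prior count of 2. Alternatives were DESeq2 1.42.0, its size factors in edgeR, library size alone, no filter, at least 10 counts in every library, 9 libraries in 1 fit, replicate number as a block, each library left out in turn, and, added after seeing the data, offsets for GC content and transcript length (splines of 5 and 4 degrees of freedom), also with the block.

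Named genes are all 10 members, up to 2 called rises and 2 called falls of each other list at 48 h against 0 h with its most abundant gene, and the 3 genes most alike to Myc, Mycn, Mycl and the MXD or MNT gene that changed most. A gene that this rule names is not reported here. The members and lists were chosen with earlier results of these data known. Promoter sequences are from RefSeq.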

Additional observations from a re-analysis of the deposited data

How the results depend on the processing

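Of the log2 fold changes of the 10 genes under alternatives that kept all libraries, 245 kept their direction and their side of the threshold, 14 lost the call, 1 gained it and 10 turned in sign. Without a library, 149 kept both, 22 lost the call, 1 gained it and 8 turned. With library size alone, the median of all genes moved to 0.12 at 24 h and 0.13 at 48 h against 0 h, the share of higher calls went from 44.5% to 57.1% and from 41.2% to 52.8%, and log2 fold changes turned to 0.042 for Myc, 0.084 for Mga and 0.051 for Mxd3 (24 h against 0 h) and to 0.062 for Mycn (48 h against 0 h). Mga at 24 h against 0 h also turned to 0.011 with at least 10 counts in every library, 0.16 with the replicate block, 0.022 with GC and length offsets and 0.032 with both. Mycn at 48 h against 0 h turned to 0.20 with these offsets and 0.21 with both. The offsets gave 15 and 20 MYC-activated genes called at 24 h and 48 h against 0 h (10 and 17 with the block), and 3 members at 48 h against 24 h with or without the block. All 9 libraries in 1 fit gave 1 member, 1043 genes and 4 MYC-activated genes at 48 h against 24 h. The cause of these moves was not tested.

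Leaving out a library gave 2607 to 6023 genes, 2 to 4 members and 4 to 14 MYC-activated genes at 24 h against 0 h, 3471 to 7116, 2 to 4 and 8 to 19 at 48 h against 0 h, and 1857 to 4356, 2 to 6 and 8 to 14 at 48 h against 24 h. Log2 fold changes that changed sign ran from -0.25 to 0.11 (Myc), -0.34 to 0.59 (Mga) and -0.15 to 0.046 (Mxd3) at 24 h against 0 h, and from -0.19 to 0.13 (Mycn) and -0.017 to 0.090 (Mxd1) at 48 h against 0 h. Same-numbered libraries of different times had deviations correlated at -0.28 to 0.195, and differently numbered ones at -0.392 to 0.38, so no pairing by number was seen. The deviations also carry the GC relation of the libraries, so these values cannot settle whether same-numbered libraries were handled together. The replicate block gave 3, 3 and 5 members and 3007, 4013 and 2497 genes called in the 3 comparisons. Higher calls were 27.3% of all calls at 48 h against 24 h with 9 libraries in 1 fit, against 40.4%.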
